A study of Mus musculus with 12 samples.

Results

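The expression of 10 genes of lipid handling and foam cell formation was measured in bone marrow-derived macrophages (BMDMs): *Apoe*, *Abca1*, *Abcg1*, *Cd36*, *Lpl*, *Trem2*, *Gpnmb*, *Nr1h3*, *Pparg*, and *Plin2*. They were chosen by gene symbol, with earlier results of these data known. All 10 were found among the 18376 genes of the table and passed the filter on low values. BMDMs are macrophages grown in culture from bone marrow progenitors, here of adult C57BL6/J mice with the genotype WT, and all cells received 50 ng/ml mouse recombinant M-CSF, the growth factor that drives macrophage differentiation. CTRL cells received nothing else. Act cells were also given recombinant activin A at 50 ng/ml, FST cells were given FST288 at 250 ng/ml, and the Act+FST group was given both at these doses. Treatment lasted 6 days, and each group has 3 libraries, which makes 12 in all. Activin A is a ligand of the TGF-β family that signals through SMAD2 and SMAD3, and FST288 is a short form of follistatin, the secreted antagonist that binds activin A. The question was how activin A changes these macrophages and whether follistatin blocks the change. The labels do not say whether the 3 libraries of a group came from separate mice or cultures, so the p-values measure the spread between these libraries, which may be technical. Each group is a cultured bulk population, in which fewer cells of a type and less RNA per cell cannot be told apart.

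Macrophages take up fatty acids and modified lipoproteins through scavenger receptors such as CD36, and release fatty acids from lipoproteins with lipoprotein lipase (LPL). Excess cholesterol activates the liver X receptors, of which *Nr1h3* encodes LXRα. These raise the exporters ABCA1 and ABCG1, which load cholesterol onto lipoprotein acceptors, and the carrier apolipoprotein E. PPARγ (*Pparg*), another nuclear receptor, is activated by fatty acid derivatives and induces *Cd36*. Lipid that is neither exported nor burned is stored in droplets coated by perilipin 2 (*Plin2*), and macrophages filled with such droplets are the foam cells of atherosclerotic lesions. TREM2, a lipid-sensing receptor, and GPNMB, a transmembrane glycoprotein of stressed lysosomes, mark lipid-associated macrophages.

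The deposited values are normalized read counts per gene, given as whole numbers and called normalized counts here. Their totals lay between 5643708 and 5955400 per library, and because of the normalization they say nothing about the original depth. The 14318 genes whose mean was at least 5 were tested with limma after taking log2(normalized count + 1), and a gene was called changed where its p, adjusted over all of them after Benjamini and Hochberg, was at most 0.05. Log2 differences are therefore on the log2(normalized count + 1) scale. Macrophage identity was seen in all groups, where the summed normalized counts of 10 macrophage markers (*Adgre1*, *Csf1r*, *Cd68*, *Itgam*, *Fcgr1*, *Mertk*, *Lyz2*, *Cd14*, *Mrc1*, and *Spi1*) ranged from 15339 to 16766 in CTRL, from 14842 to 15668 in Act, from 15324 to 16696 in Act+FST, and from 15383 to 16814 in FST. Of the 7 adipocyte markers looked up (*Adipoq*, *Plin1*, *Lep*, *Cfd*, *Adig*, *Cidea*, and *Retn*), 0 had a row, and they were not analysed here. Stromal markers summed to at most 236 normalized counts in any library.

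Activin A lowered 4 of the 10 genes and raised 0 of them at the threshold, where 9.97% of all 14318 genes tested fell and 10.3% rose. *Cd36* and *Pparg* were at close to 50% of their CTRL level, *Lpl* at 0.682 times, and *Gpnmb* at 0.829 times that level, while *Trem2* and *Plin2* stayed within 1% of CTRL on average. The efflux genes *Abca1* and *Apoe* were 13.0% and 13.2% higher, differences that did not pass the threshold (adjusted p = 0.18 and 0.069) and did so when the pairing of libraries by replicate number entered the fit (0.015 and 0.024). With FST288 present, 0 of the 10 genes and 0 of all 14318 genes differed from CTRL at the threshold.

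The starts of transcription of the genes that results turn on are shown first. RefSeq promoter entries (GRCm38.p6, the mm10 build) were matched by symbol for 8 of the 10 genes, with 13 start sites, and *Abcg1* and *Lpl* had no entry. Shown are the 250 bases before the start, 5′ to 3′ on the strand of the gene. *Cd36* and *Pparg* were chosen because they fell most, *Gpnmb* because it fell least of the 4, *Abca1* because it was higher in Act than in Act+FST, and *Trem2* because its difference from CTRL was close to 0. Capitals mark the SMAD box CAGAC, the short element bound by SMAD proteins, and AGGTCA, the hexamer recognised by nuclear receptors such as PPARγ and LXRα, each on either strand. For *Pparg* the start shown is the downstream one, the only one of its 3 start sites whose upstream window is free of annotated exons. The RefSeq start of *Cd36* (17835896) lies inside the longer GENCODE span of the gene, which has further starts upstream that are not shown.
Cd36, chr5:17835897-17836146, minus strand: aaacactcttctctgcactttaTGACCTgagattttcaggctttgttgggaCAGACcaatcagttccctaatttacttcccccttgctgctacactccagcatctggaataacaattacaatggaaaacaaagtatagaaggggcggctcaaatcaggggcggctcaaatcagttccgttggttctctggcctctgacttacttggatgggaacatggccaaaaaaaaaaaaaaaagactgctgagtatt
Pparg, chr6:115421816-115422065, plus strand: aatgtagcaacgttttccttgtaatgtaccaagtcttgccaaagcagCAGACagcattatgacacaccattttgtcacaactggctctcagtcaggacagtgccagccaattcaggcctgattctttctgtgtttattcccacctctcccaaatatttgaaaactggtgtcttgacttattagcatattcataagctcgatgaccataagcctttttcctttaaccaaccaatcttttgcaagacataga
Gpnmb, chr6:49036268-49036517, plus strand: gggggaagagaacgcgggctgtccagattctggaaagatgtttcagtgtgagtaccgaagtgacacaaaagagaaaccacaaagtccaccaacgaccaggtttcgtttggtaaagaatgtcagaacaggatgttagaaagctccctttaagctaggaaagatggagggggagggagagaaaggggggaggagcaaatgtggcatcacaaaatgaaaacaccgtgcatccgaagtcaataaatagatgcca
Abca1, chr4:53159896-53160145, minus strand: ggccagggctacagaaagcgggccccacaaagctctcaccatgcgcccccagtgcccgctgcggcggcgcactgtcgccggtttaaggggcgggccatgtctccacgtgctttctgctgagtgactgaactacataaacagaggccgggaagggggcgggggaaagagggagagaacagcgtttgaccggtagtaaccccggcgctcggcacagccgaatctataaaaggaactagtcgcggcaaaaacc
Trem2, chr17:48346151-48346400, plus strand: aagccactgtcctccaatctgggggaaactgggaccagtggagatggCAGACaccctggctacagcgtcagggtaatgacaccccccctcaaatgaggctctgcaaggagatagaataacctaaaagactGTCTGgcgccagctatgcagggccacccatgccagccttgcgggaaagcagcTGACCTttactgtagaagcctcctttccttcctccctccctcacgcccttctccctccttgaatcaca
The *Cd36* window holds an AGGTCA match on the opposite strand at -228 to -223 and a CAGAC match at -199 to -195 from the start. The *Pparg* window holds a CAGAC match at -203 to -199, and neither motif was found in the *Gpnmb* and *Abca1* windows. The windows of the upstream *Pparg* starts, not shown, hold AGGTCA at -28 to -23 and at -9 to -4 and no CAGAC. Which *Pparg* start these cells use was not tested. The *Trem2* window holds CAGAC matches at -203 to -199 and at -120 to -116 and an AGGTCA match at -68 to -63. Among all 32851 RefSeq windows of the same length, 42.2% hold CAGAC and 14.0% hold AGGTCA, so a match is common, and these letters describe the windows and not sites of binding. No overlap of the 2 motifs with each other occurs in the windows shown. The palindromic SMAD element GTCTAGAC was in 55 of all windows, and in none of the 13 windows of these genes.

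*Cd36* (ENSMUSG00000002944, GRCm38 chr5:17781690-17888801, minus strand), the scavenger receptor and fatty acid transporter, showed the largest difference of the 10 genes in Act versus CTRL. Its normalized counts were 1727, 1423, and 1412 in CTRL, 783, 825, and 673 in Act, 1314, 1227, and 1343 in Act+FST, and 1570, 1456, and 1436 in FST, in the order of replicates 1 to 3. All Act libraries lay far below all other libraries. *Cd36* fell by 49.9% in Act versus CTRL (log2 difference -0.998, SE 0.09, 95% interval -1.18 to -0.81, adjusted p = 8.1e-06). Its unrounded log2 difference of -0.998 missed the 2-fold limit that the study set for differentially expressed genes (DEGs), so that it was not a DEG here, and it passed the limit with other scalings and without CTRL replicate 2 or 3 or Act replicate 1 or 2 (log2 difference down to -1.06). Against Act+FST, *Cd36* fell by 41.4% in Act (log2 difference -0.77, SE 0.09, adjusted p = 5.5e-05).

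*Pparg* (ENSMUSG00000000440, chr6:115360951-115490399, plus strand), the receptor that induces *Cd36*, gave normalized counts of 439, 407, and 414 in CTRL and of 253, 244, and 172 in Act. The values were 414, 380, and 395 in Act+FST and 487, 422, and 435 in FST. The Act libraries again lay below all others, with replicate 3 the lowest. *Pparg* fell by 47.5% in Act versus CTRL (log2 difference -0.93, SE 0.12, 95% interval -1.18 to -0.68, adjusted p = 0.00014). Compared with Act+FST, it fell by 44.4% (log2 difference -0.85, SE 0.12, adjusted p = 0.00027). The log2 difference of Act from CTRL within replicate numbers was -0.79, -0.74, and -1.26, and without Act replicate 1 or 2 *Pparg* passed the 2-fold limit (log2 difference down to -1.03).

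*Lpl* (ENSMUSG00000015568, chr8:68880491-68907448, plus strand), which encodes the enzyme that hydrolyses lipoprotein triglycerides, had values of 2739, 2280, and 2198 in the CTRL libraries and of 1806, 1591, and 1515 in the Act libraries (normalized counts). In Act+FST it gave 2243, 2133, and 2035, and in FST 2574, 2426, and 2349. Replicate 1 was the highest library in every group, and no Act library reached the lowest library of another group. *Lpl* fell by 31.8% in Act versus CTRL (log2 difference -0.55, SE 0.08, 95% interval -0.73 to -0.37, adjusted p = 0.00057), and its difference within replicate numbers was between -0.60 and -0.52. In Act versus Act+FST it fell by 23.5% (log2 difference -0.39, SE 0.08, adjusted p = 0.0056).

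*Gpnmb* (ENSMUSG00000029816, chr6:49036546-49070929, plus strand) was at 3550, 3107, and 3345 normalized counts in CTRL, 2942, 2699, and 2642 in Act, 3057, 3293, and 3220 in Act+FST, and 3195, 3434, and 3265 in FST. The Act libraries lay below the others by a narrow margin, since the highest Act library (2942) was close to the lowest Act+FST library (3057). *Gpnmb* fell by 17.1% in Act versus CTRL (log2 difference -0.27, SE 0.06, 95% interval -0.40 to -0.14, adjusted p = 0.0072). In Act versus Act+FST it fell by 13.5% (log2 difference -0.21, SE 0.06, adjusted p = 0.027). The second call was lost when any of Act replicate 2, Act replicate 3, Act+FST replicate 2, or Act+FST replicate 3 was left out, with adjusted p up to 0.10.

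**Figure D1:**
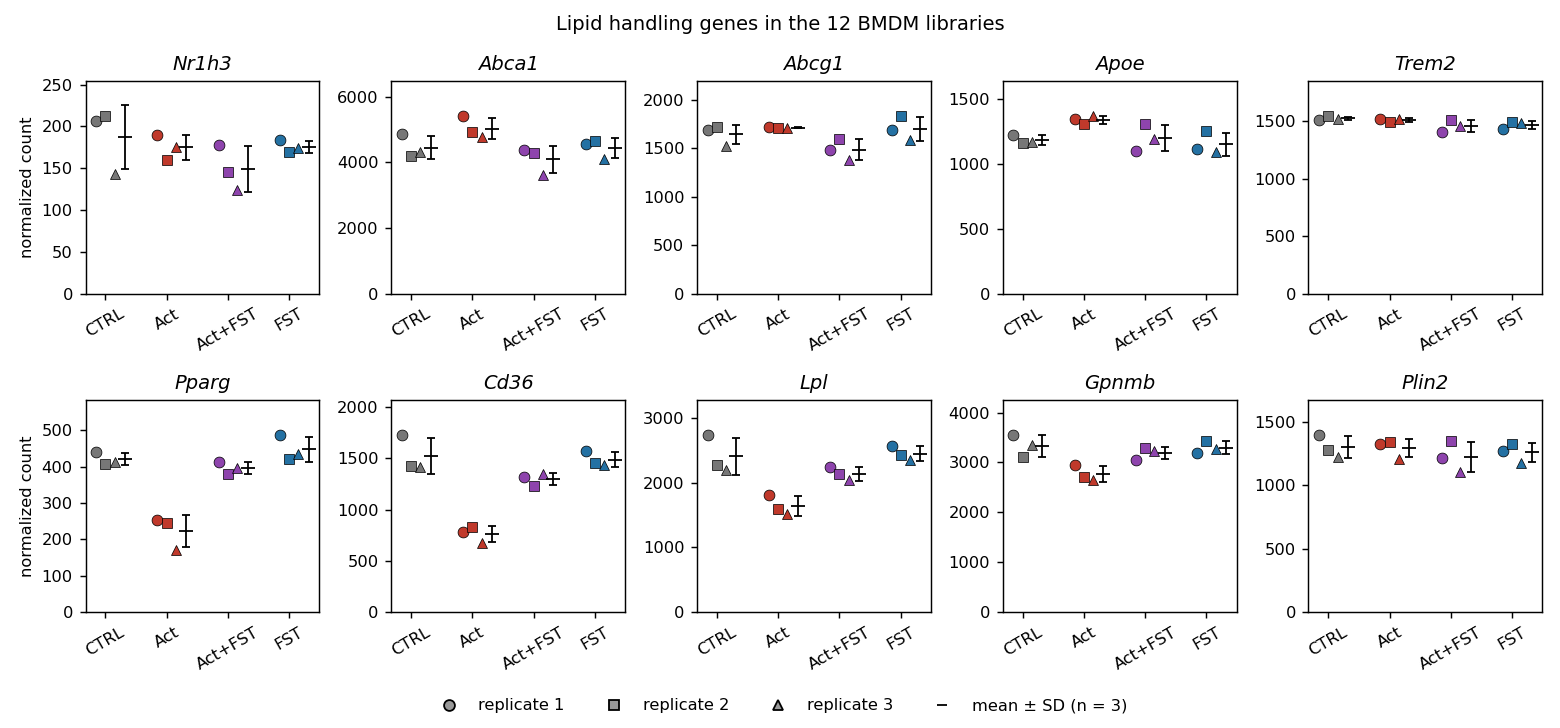
Normalized counts (linear axis from 0) of the 10 genes in each library, by group, with the marker shape giving the replicate number and the bar the mean ± SD of 3 libraries. The 3 Act libraries of *Cd36* (673 to 825), *Pparg* (172 to 253), *Lpl* (1515 to 1806), and *Gpnmb* (2642 to 2942) lie below all other libraries, and those of *Trem2* (1492 to 1525) do not separate from CTRL.

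Of the genes of cholesterol efflux, 0 passed the threshold in Act versus CTRL without the block. *Abca1* (ENSMUSG00000015243, chr4:53030787-53159895, minus strand), the exporter that loads cholesterol onto apolipoprotein A-I, was at 4848, 4200, and 4304 normalized counts in CTRL, 5397, 4912, and 4769 in Act, 4374, 4280, and 3625 in Act+FST, and 4558, 4650, and 4089 in FST. Act and CTRL overlapped, because CTRL replicate 1 was above Act replicate 3, whereas each Act library was above its own-numbered CTRL library. The log2 difference was 0.18 in Act versus CTRL (SE 0.09, 95% interval -0.01 to 0.36, adjusted p = 0.18), and with the replicate block the adjusted p was 0.015. In Act versus Act+FST, *Abca1* was 1.23-fold higher (log2 difference 0.30, SE 0.09, adjusted p = 0.026, 0.00035 with the block). This call was lost when Act replicate 1, Act replicate 2, or Act+FST replicate 3 was left out, with adjusted p up to 0.12.

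*Abcg1* (ENSMUSG00000024030, chr17:31057675-31117988, plus strand), the exporter that passes cholesterol to HDL, had 1689, 1715, and 1527 normalized counts in the CTRL libraries, and 1718, 1706, and 1709 in the Act libraries. It was at 1481, 1595, and 1380 in Act+FST and at 1686, 1829, and 1588 in FST. The 3 Act libraries were nearly equal, and all Act+FST libraries stood below them. The log2 difference was 0.06 in Act versus CTRL (SE 0.06, 95% interval -0.08 to 0.20, adjusted p = 0.59). *Abcg1* was 1.15-fold higher in Act versus Act+FST (log2 difference 0.21, SE 0.06, adjusted p = 0.038), a call lost without Act replicate 1, 2, or 3 or without Act+FST replicate 1 or 3, with adjusted p up to 0.16. The same gene had a log2 difference of -0.15 in Act+FST versus CTRL (SE 0.06, unadjusted p = 0.042, adjusted p = 1).

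*Apoe* (ENSMUSG00000002985, chr7:19696109-19699188, minus strand), the lipoprotein component that macrophages secrete, was at 1228, 1164, and 1167 normalized counts in CTRL, 1351, 1310, and 1368 in Act, 1104, 1306, and 1192 in Act+FST, and 1118, 1256, and 1090 in FST. All Act libraries were above all others, though Act replicate 2 exceeded Act+FST replicate 2 by only a few counts. *Apoe* did not pass the threshold in Act versus CTRL (log2 difference 0.18, SE 0.06, 95% interval 0.04 to 0.32, adjusted p = 0.069) and did so with the replicate block (adjusted p = 0.024) and without Act+FST replicate 1, Act+FST replicate 2, or FST replicate 2 (adjusted p down to 0.041). Its log2 difference in Act versus Act+FST was 0.16 (SE 0.06, adjusted p = 0.091), and this passed with the block (0.035) and without Act+FST replicate 2 (0.025). *Nr1h3* (ENSMUSG00000002108, chr2:91184061-91202834, minus strand) was at 206, 212, and 143 normalized counts in CTRL, 190, 160, and 175 in Act, 178, 146, and 124 in Act+FST, and 184, 170, and 174 in FST. The groups overlapped widely, and the log2 difference of -0.08 in Act versus CTRL had the widest interval of the 10 genes (-0.41 to 0.25, adjusted p = 0.79). It shares 34 exonic bases (1.35%) with *Gm13783* on the same strand, where reads on both genes were not counted.

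For *Trem2* and *Plin2* no difference between Act and CTRL was detected. *Trem2* (ENSMUSG00000023992, chr17:48346401-48354147, plus strand) was at 1511, 1543, and 1525 normalized counts in CTRL, 1517, 1492, and 1525 in Act, 1405, 1514, and 1462 in Act+FST, and 1433, 1496, and 1487 in FST. The log2 difference in Act versus CTRL was -0.01 (SE 0.04). Its 95% interval of -0.10 to 0.07 spans a fall of 6.5% to a rise of 4.8% in normalized counts. Those counts of *Trem2* exceed the bases of its longest coding transcript, and whether this narrows its differences was not tested. *Plin2* (ENSMUSG00000028494, chr4:86648386-86670060, minus strand) was at 1399, 1282, and 1225 normalized counts in CTRL, 1329, 1342, and 1211 in Act, 1215, 1348, and 1110 in Act+FST, and 1275, 1327, and 1181 in FST. Its groups overlapped throughout, with a log2 difference of -0.01 in Act versus CTRL (SE 0.07, 95% interval -0.17 to 0.15), which is a wider interval than that of *Trem2*.

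Set against all genes tested, 4 of the 10 genes fell in Act versus CTRL, where 9.97% of all 14318 genes fell, and 0 rose, where 10.3% of all genes rose. DEGs at 2-fold made up 5.66% of all genes and 0 of the 10. The median log2 difference of the 10 genes was -0.05, and that of all genes was 0.004. In Act versus Act+FST, 4 of the 10 fell (10.2% of all genes), 2 rose (11.1% of all genes), and 0 were DEGs (5.83% of all genes). The same 4 genes fell in both comparisons, which share the Act libraries. With the replicate block, 2338 genes rose and 2170 fell in Act versus CTRL (31.5% of all genes), and 2 of the 10 rose, *Apoe* and *Abca1*, beside the 4 that fell. The block gave 32.6% of all genes in Act versus Act+FST, and *Apoe*, *Abca1*, and *Abcg1* rose.

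**Figure D2:**
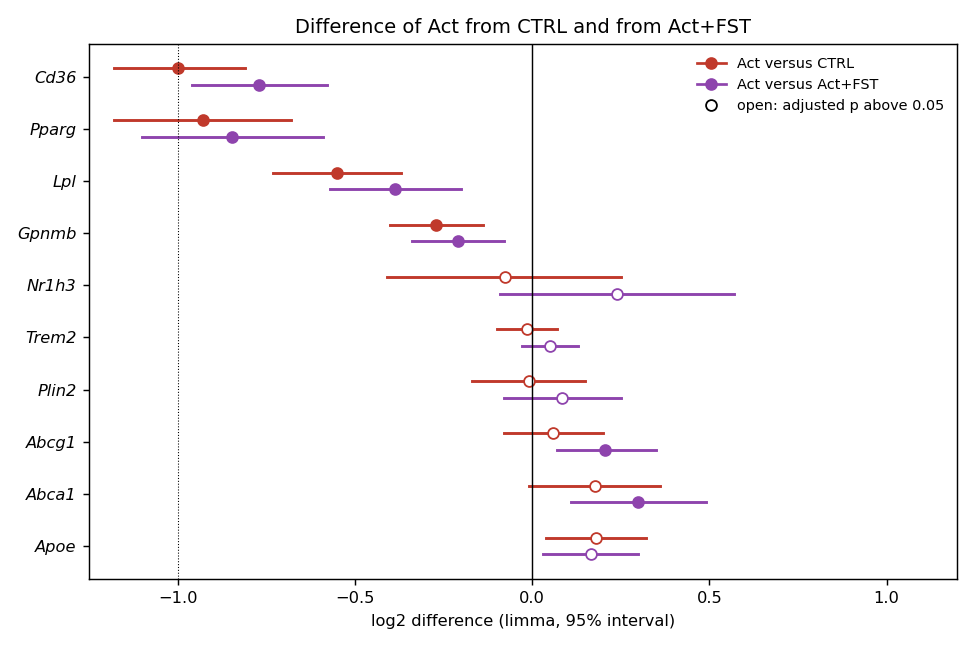
Log2 difference (limma, on log2(normalized count + 1)) of Act from CTRL and from Act+FST for each of the 10 genes, with 95% intervals as lines and open symbols where the adjusted p is above 0.05. *Cd36*, *Pparg*, *Lpl*, and *Gpnmb* lie left of 0 in both comparisons, and the dotted line marks the 2-fold limit at -1, next to *Cd36* at -0.998.

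With follistatin, the log2 differences of the 10 genes in Act+FST versus CTRL ranged from -0.32 (*Nr1h3*, 95% interval -0.65 to 0.01) to 0.01 (*Apoe*). By the adjusted p of limma, 0 of the 10 and 0 of all 14318 genes (0%) differed between Act+FST and CTRL. At an unadjusted p under 0.05, 2 of the 10 (*Cd36* and *Abcg1*, both lower) and 655 of all genes were found. With the replicate block these were 5 of the 10 (*Lpl*, *Abcg1*, *Cd36*, *Nr1h3*, and *Abca1*, all lower) and 1404 of all genes (9.81%). After adjustment the block called 80 of all genes (0.559%) and 0 of the 10. *Cd36* had the lowest unadjusted p (0.021, log2 difference -0.23, SE 0.09, adjusted p = 0.96), and its Act+FST libraries (1227 to 1343) lay below its CTRL libraries (1412 to 1727) without overlap. Such a lower group without overlap was found for 1 of the 10 genes and for 3.02% of all genes tested. The sign was negative for 9 of the 10 genes, with a median log2 difference of -0.11 against -0.001 over all genes.

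Against FST alone, Act+FST again called 0 of the 10 and 0% of all genes in limma, and the block called 31 of all genes (0.217%) and 0 of the 10. At an unadjusted p under 0.05 there were 3 of the 10 (*Abcg1*, *Cd36*, and *Lpl*, all lower) and 502 of all genes, and with the block 5 of the 10, all lower, and 1169 of all genes (8.16%). The log2 differences were -0.20 for each of *Abcg1*, *Cd36*, and *Lpl* (SE 0.06, 0.09, and 0.08). Again 9 of the 10 signs were negative, some for small differences such as -0.01 for *Trem2* and -0.05 for *Plin2*. This comparison shares the Act+FST libraries with the one before it. The 10 genes were measured in the same libraries, so neither count of signs holds 10 independent results. FST288 alone called 0 of the 10 and 0% of all genes against CTRL, also with the block, and 0 of the 10 and 299 of all genes had an unadjusted p under 0.05. The log2 differences of the 10 genes in FST versus CTRL ranged from -0.07 (*Nr1h3*) to 0.09 (*Pparg*).

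Whether follistatin changed the response to activin A was tested as the Act effect without FST288 (Act versus CTRL) minus the Act effect with it (Act+FST versus FST). This difference passed the threshold for 2 of the 10 genes and for 6.74% of all genes. For *Cd36* it was -0.80 (SE 0.12, 95% interval -1.06 to -0.53, adjusted p = 0.0021), and for *Pparg* -0.76 (SE 0.16, 95% interval -1.11 to -0.40, adjusted p = 0.016). *Lpl* at -0.35 (adjusted p = 0.10), *Abca1* at 0.29 (adjusted p = 0.19), and *Abcg1* at 0.26 (adjusted p = 0.13) did not pass without the block and did with it, at adjusted p of 0.00071, 0.011, and 0.0074. *Gpnmb* at -0.22 had an adjusted p of 0.16 (0.063 with the block), so that a lesser fall under follistatin is not shown for it by this test. The block called 16.3% of all genes in this contrast.

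**Figure D3:**
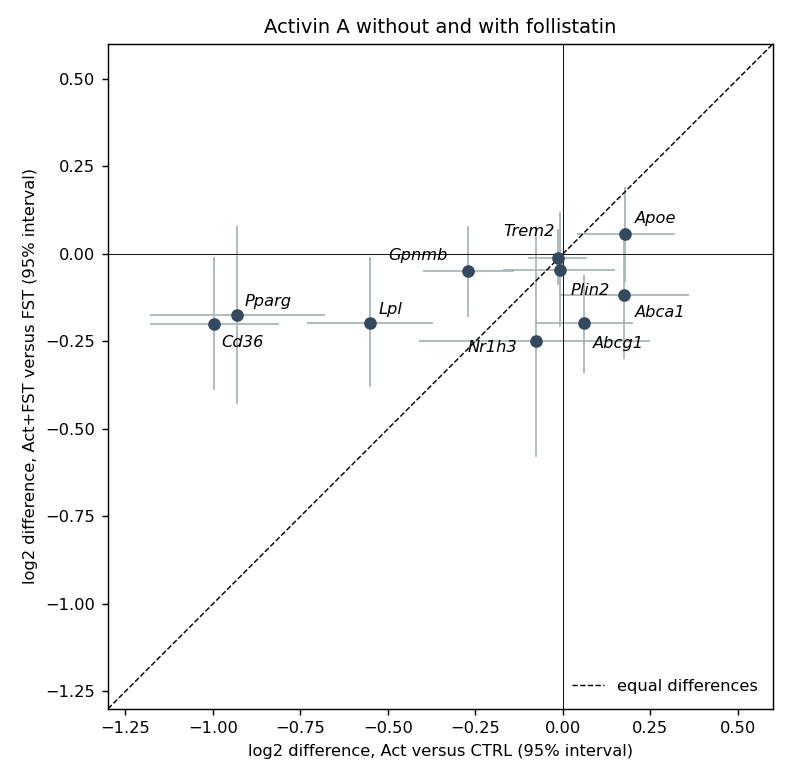
Log2 difference of Act from CTRL (horizontal) against that of Act+FST from FST (vertical), limma estimates with 95% intervals for the 10 genes, where the dashed line marks equal differences. *Cd36* and *Pparg* lie near -1 on the horizontal axis and at -0.20 and -0.17 on the vertical axis, far from the dashed line.

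Levels can be compared between genes only per length, here per kilobase of the longest coding transcript (GENCODE, GRCm38). Over the 12 libraries, the mean normalized count per kilobase was 1372 for *Trem2*, 867 for *Apoe*, 850 for *Gpnmb*, 673 for *Plin2*, 524 for *Lpl*, 439 for *Abca1*, 372 for *Cd36*, 280 for *Abcg1*, 175 for *Pparg*, and 87.9 for *Nr1h3*. Over 10213 genes (mean of 50 or more, with a coding transcript), the median was 139 per kilobase, so that all but *Nr1h3* were above it. *Trem2* had the highest value of all these genes. In CTRL, *Apoe* (843 ± 25.7 per kilobase, SD, n = 3) and *Gpnmb* (901 ± 59.9) were neighbours that did not differ beyond their spread, and in Act the order was *Apoe* (954 ± 21.2) before *Gpnmb* (746 ± 43.1). *Cd36* was at 447 ± 52.6 per kilobase in CTRL, next to *Abca1* at 434 ± 33.9, and at 224 ± 23.1 in Act, below *Abcg1* at 293 ± 1.07. The order depends on the length used: per kilobase of all annotated exonic bases, *Apoe* was first and *Trem2* sixth, since *Trem2* has 4946 exonic bases and a longest coding transcript of 1088, while *Pparg* and *Nr1h3* were the last in both orders.

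The 1492 normalized counts of *Trem2* exceed the 1088 bases of its longest coding transcript. Its variance within groups was 0.785 times its mean, below the median ratio of 1.31 over the 10213 genes, whereas *Apoe* (4.17), *Gpnmb* (8.28), and *Plin2* (6.45) were also dense and had ratios above it. No gene exceeded 6378 normalized counts in any library, and the 100 highest genes held 4.65% to 5.13% of a library's total. The methods name duplication rates as assessed and no removal of duplicate reads. A correction for reads with a shared start position, which was added once the values were known, moved the log2 difference in Act versus CTRL from -0.998 to -1.21 for *Cd36*, from -0.27 to -0.38 for *Gpnmb*, and from 0.18 to 0.29 for *Apoe*, whose adjusted p became 0.048. The correction was applied to normalized counts and took all annotated exonic bases as the length, not the longest coding transcript. Whether shared start positions shape these values was not tested.

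**Figure D4:**
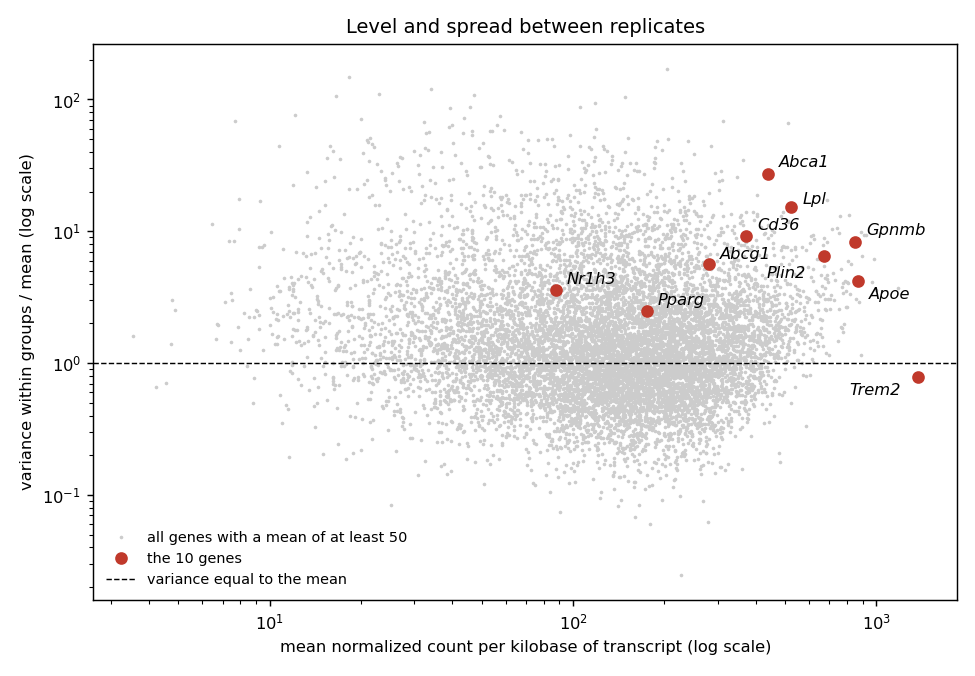
Mean normalized count per kilobase of the longest coding transcript (log axis) against the variance within groups divided by the mean (log axis), for 10213 genes whose mean was 50 or more (grey) and the 10 genes (red). *Trem2* lies at the right edge at 1372 per kilobase with a ratio of 0.785, below the dashed line at which variance equals the mean, and the other 9 genes lie above that line.

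Other genes of the same routes were taken from 6 lists, which hold the 10 genes too and were chosen with earlier results of these data known. The list and marker counts below stand beside shares of 10.3% higher and 9.97% lower over all genes tested in Act versus CTRL. With the block, 31.5% of all genes were called in either direction. Among 10 lipid uptake receptors and partners tested, 3 rose and 3 fell in Act versus CTRL, with a median log2 difference of 0.04 (4 rose and 3 fell with the block). *Olr1*, which encodes the oxidized LDL receptor LOX-1, was at 10, 8, and 3 normalized counts in CTRL, 82, 54, and 97 in Act, 4, 5, and 8 in Act+FST, and 9, 10, and 7 in FST. It rose by 3.38 on the log2 scale (SE 0.38, adjusted p = 6.6e-05). The scavenger receptors moved in both directions, with *Cxcl16* (log2 difference 0.65, adjusted p = 0.00046) and *Marco* (0.90, adjusted p = 0.0017) higher and the HDL receptor *Scarb1* (-0.51, adjusted p = 0.00023) lower. *Marco* was also high with FST288, at 87.7 ± 2.08 normalized counts in CTRL, 166 ± 34.5 in Act, and 144 ± 28.0 in Act+FST (SD, n = 3). In Act+FST versus CTRL it had a log2 difference of 0.69 (adjusted p = 0.57, 0.031 with the block). *Msr1*, the class A scavenger receptor, had a log2 difference of 0.05 (adjusted p = 0.67).

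In the list of LXR and cholesterol efflux genes, 6 of 17 tested rose in Act versus CTRL and 0 fell, with a median log2 difference of 0.13, against 8 that rose and 3 that fell with the block. The 6 do not include *Abca1*, *Abcg1*, or *Apoe*, of which the block added *Abca1* and *Apoe*. *Apoc1*, a small apolipoprotein gene of the *Apoe* cluster, was at 47, 52, and 34 normalized counts in CTRL, 121, 118, and 128 in Act, 41, 35, and 22 in Act+FST, and 34, 49, and 27 in FST. Its log2 difference was 1.46 (SE 0.26, adjusted p = 0.0015), set beside 0.18 for *Apoe*. *Mylip*, an LXR-induced ubiquitin ligase, went from 846 ± 18.0 normalized counts in CTRL to 1172 ± 26.5 in Act (log2 difference 0.47, adjusted p = 9.6e-05). *Arl4c* (0.39, adjusted p = 0.00021), *Abca7* (0.47, adjusted p = 0.00039), and *Ch25h*, the cholesterol 25-hydroxylase (2.10, adjusted p = 0.01), also rose, the last from a low level of 4.00 ± 2.65 to 18.7 ± 6.81 normalized counts. *Srebf1*, a classical LXR target, had a log2 difference of -0.03 (adjusted p = 0.80).

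Among 13 PPAR factors and targets tested, 2 rose and 4 fell (median log2 difference -0.01), and with the block 5 rose and 5 fell. *Fabp4*, a fatty acid binding protein induced by PPARγ, had 311, 361, and 371 normalized counts in the CTRL libraries, and 267, 308, and 251 in the Act libraries (log2 difference -0.34, adjusted p = 0.031). It stood at 253, 294, and 313 in Act+FST, and its Act versus Act+FST difference was -0.06 (adjusted p = 0.75), beside -0.85 for *Pparg* and -0.77 for *Cd36*. *Ppard*, the related receptor PPARδ, was 0.32 higher on the log2 scale (adjusted p = 0.0014), and *Ppargc1b*, a coactivator, 0.63 higher (adjusted p = 0.046). The call of *Fabp4* was lost without CTRL replicate 2 or 3 or Act replicate 1 or 3 (adjusted p up to 0.12), and that of *Ppargc1b* without any library other than Act replicate 2, Act+FST replicate 2, or Act+FST replicate 3 (adjusted p up to 0.17). *Angptl4*, an inhibitor of LPL and a PPAR target, had a log2 difference of 0.86 (adjusted p = 0.13, 0.0029 with the block).

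Of 13 genes of lipid droplets and esterification, 2 rose and 1 fell (median log2 difference -0.01), and with the block 3 rose and 2 fell, where *Lipe* (0.13, adjusted p = 0.043) and *Mgll* (-0.62, adjusted p = 0.03), both lipases, were added. *Dgat2*, which makes triglycerides, went from 15.3 ± 4.93 to 33.7 ± 10.4 normalized counts (log2 difference 1.08, adjusted p = 0.035), and *G0s2*, an inhibitor of triglyceride lipase, from 7.67 ± 5.51 to 19.3 ± 5.51 (log2 difference 1.37, adjusted p = 0.043). Both were low, and their calls were lost without CTRL replicate 1 or 3 or Act replicate 2 or 3 (adjusted p up to 0.13 for *Dgat2* and 0.16 for *G0s2*), that of *G0s2* also without Act replicate 1, Act+FST replicate 1, or FST replicate 3. *Plin3*, a droplet coat gene like *Plin2*, fell from 743 ± 13.6 to 649 ± 14.2 (log2 difference -0.20, adjusted p = 0.0059). *Soat1*, which esterifies cholesterol, had a log2 difference of -0.08 (adjusted p = 0.30). Among 12 genes of lysosomal lipid breakdown, 0 rose, *Smpd1* (log2 difference -0.25, adjusted p = 0.0042) and *Gla* (-0.23, adjusted p = 0.017) fell, and the other 10 did not pass, among them *Lipa*, the lysosomal acid lipase (-0.05, adjusted p = 0.60). With the block 3 fell, where *Npc2*, a cholesterol carrier of the lysosome, was added (-0.13, adjusted p = 0.036). The call of *Gla* was lost without CTRL replicate 1 or Act replicate 3 (adjusted p up to 0.074).

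Of 19 genes of TREM2 and lipid-associated macrophages, 4 rose and 5 fell (median log2 difference -0.05). With the block 5 rose and 7 fell, where *Apoe* (higher), *Itgax* (-0.48, adjusted p = 0.0034), and *Clec7a* (-0.16, adjusted p = 0.016) were added. *Axl*, a receptor for apoptotic cells, was at 826, 731, and 481 normalized counts in CTRL, 2176, 2096, and 2140 in Act, 984, 887, and 781 in Act+FST, and 784, 547, and 585 in FST (log2 difference in Act versus CTRL 1.69, SE 0.17, adjusted p = 3e-05). *Cst7* rose by 0.88 on the log2 scale (adjusted p = 0.00084) and *Cd9* by 0.25 (adjusted p = 0.02). *Cst7* was also high with FST288, at 63.3 ± 9.24 normalized counts in CTRL, 117 ± 11.4 in Act, and 95.7 ± 15.1 in Act+FST (SD, n = 3). Its log2 difference in Act versus Act+FST was 0.29 (adjusted p = 0.17). *Lgals3* (-0.27, adjusted p = 0.0019) and *Ctsb* (-0.23, adjusted p = 0.03) fell, as *Gpnmb* and *Lpl* did. The calls of *Cd9* (without CTRL replicate 2 or 3 or Act replicate 1 or 3) and of *Ctsb* (without CTRL replicate 1 or 3 or Act replicate 2 or 3) were lost, with adjusted p up to 0.084 and 0.10. *Tyrobp*, the signalling adaptor of TREM2, had a log2 difference of -0.07 (adjusted p = 0.47). Genes of this list thus passed the test in both directions.

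**Figure D5:**
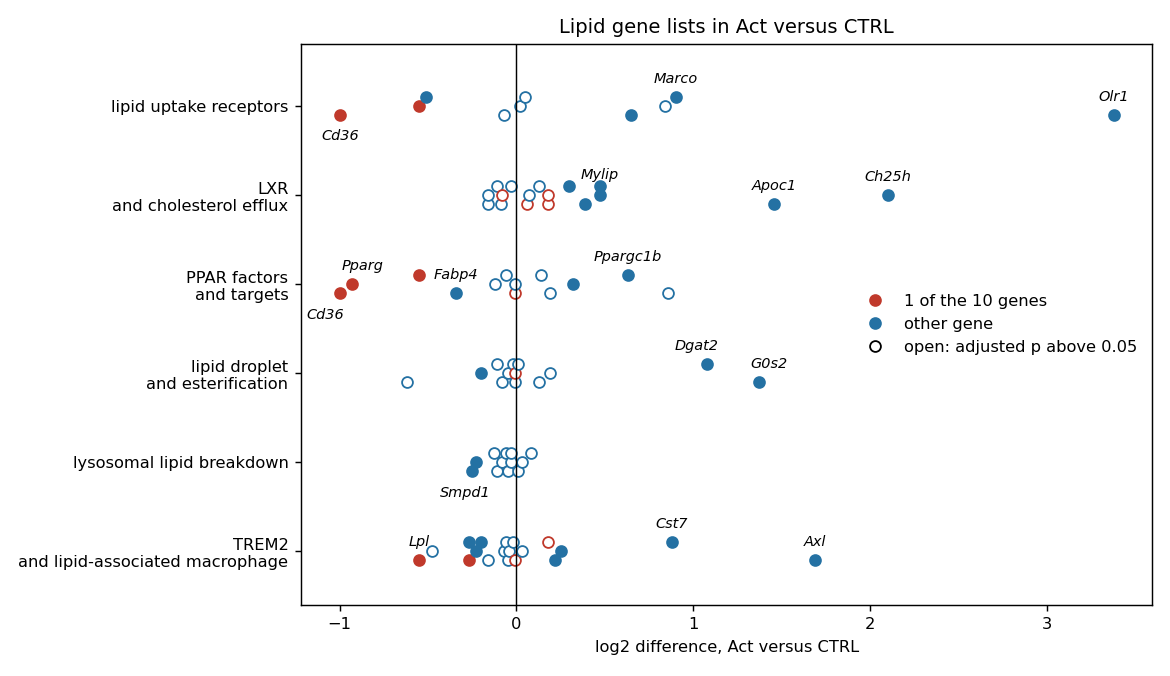
Log2 difference of Act from CTRL (limma) for the tested genes of 6 lipid gene lists, with red for the 10 genes, blue for others, and open symbols where the adjusted p is above 0.05. Some genes stand in several lists, the vertical offset within a list has no meaning, and genes lie on both sides of 0 in every list, from *Cd36* at -0.998 to *Olr1* at 3.38.

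Markers of other cell types that moved in Act versus CTRL stand beside these results. Of the macrophage markers, 1 of 10 fell (*Mrc1*, the mannose receptor, log2 difference -0.51, adjusted p = 0.00012) and 1 rose (*Cd14*, 0.23, adjusted p = 0.026). Of 7 neutrophil and progenitor markers, *Mpo* (-2.01, adjusted p = 0.0092) and *Elane* (-1.64, adjusted p = 0.025) fell, and the summed normalized counts of the list were 840 to 1124 in CTRL, 658 to 964 in Act, 768 to 1188 in Act+FST, and 814 to 1168 in FST. Of 4 monocyte markers, *Ccr2* rose (1.04, adjusted p = 0.043), and the sums were 377 to 768 in CTRL, 1050 to 1150 in Act, 508 to 922 in Act+FST, and 421 to 826 in FST. *Ccr2* made up most of these sums, at means of 471 in CTRL and 915 in Act, and the other 3 markers did not pass. Of 3 osteoclast markers tested, *Ctsk* fell (-1.64, adjusted p = 6.7e-05) and *Acp5* rose (1.18, adjusted p = 0.0018), with sums of 179 to 320, 231 to 251, 138 to 230, and 198 to 263 in the same order of groups. The log2 difference of *Ctsk* was -0.79 in Act+FST versus CTRL (adjusted p = 0.57, 0.047 with the block). In Act versus Act+FST it was -0.85 (adjusted p = 0.006). Of 4 dendritic cell markers tested, *Cd209a* fell (-2.27, adjusted p = 0.011), with sums between 51 and 111 in all libraries. Stromal sums were 4 to 59 in CTRL, 16 to 236 in Act, 4 to 101 in Act+FST, and 10 to 116 in FST, with the highest library of each group in replicate 1. Of the 3 stromal markers tested, 0 passed without the block, and 2 rose with it, *Col1a2* (log2 difference 2.76, adjusted p = 0.00047) and *Postn* (2.07, adjusted p = 0.0023). The block also added *Flt3* (1.25, adjusted p = 0.021) to the dendritic cell markers that rose and *Dcstamp* (-1.52, adjusted p = 6.9e-05) to the osteoclast markers that fell. Lymphoid and erythroid sums were at most 19. Calls were lost for *Ccr2* (7 of the 12 libraries, left out in turn), *Cd14* (5), and *Elane* (3), with adjusted p up to 0.17, 0.11, and 0.10, the libraries being CTRL replicates 2 and 3 and each Act replicate for *Cd14*, these and replicate 2 of Act+FST and of FST for *Ccr2*, and CTRL replicate 2 and Act replicates 1 and 3 for *Elane*. Their part in the lipid gene results was not tested.

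Among 10634 genes (mean of 50 or more), the profiles most like that of *Cd36* over the 12 libraries, by the root-mean-square difference of log2 values centred per gene, were those of *Epb41l1* (0.09), *Nabp1* (0.10), and *Pparg* (0.103). For *Pparg* they were *Cblb* (0.095), *Cd36* (0.103), and *Cd59a* (0.104). Both genes were singled out for this search after their values were seen. *Pparg* and *Cd36* were thus each among the 3 nearest to the other. Both had fallen by a similar amount in Act when they were singled out, so their nearness was in part given by the choice. Whether one acts on the other in these cells was not tested.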

How the data were processed

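RNA from 12 BMDM libraries was sequenced with a stranded mRNA kit and single-end reads. The authors trimmed reads (Trimmomatic 0.39), aligned them to mm10 (STAR 2.7.9a), counted reads in exons per gene (featureCounts 2.0.2), excluding reads on several genes or positions, and used DESeq2 1.30.0, as named in their methods and processing notes. The deposited signal is such a count after normalization, given as whole numbers. Original reads and depth cannot be recovered from it, and tests for raw counts were not used. The normalization formula, strand setting, and removal of duplicates are not given in the sources used here. The 10 genes, the lists, and the tests were chosen with earlier results of these data known.

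Values were fitted with limma 3.58.1 (R 4.3.3; moderated tests whose prior variance follows the mean) as log2(normalized count + 1), for genes whose mean was 5 or more, with all 4 groups in 1 model, two-sided, with Benjamini-Hochberg adjustment over 14318 genes. The spread between libraries includes counting error. The model was tested on simulated data of Act versus CTRL, where 159 of 196 genes changed 2-fold (81.1%) were called with 9 false calls among 14260 genes. The simulation gave every gene the same dispersion, did not pair libraries, and changed fewer genes than were called here. Its rates need not hold for the real data. The replicate numbers of the labels pair the libraries: deviations from group means correlated across genes between 0.157 and 0.481 in all 18 same-numbered pairs (mean 0.312). The mean of -0.155 over 36 other pairs adds nothing to this, because deviations from a group mean cancel out within the group. Fits with the number as a block are therefore given where they change a call. Named beside the 10 genes were, per list, up to 5 genes changed in Act versus CTRL, by size, and similar profiles for DEGs among the 10, of which there were 0; *Msr1*, *Srebf1*, *Angptl4*, *Soat1*, *Lipa*, and *Tyrobp*, which did not pass, and the genes added by the block were named after their values were seen. Alternatives were pseudocounts of 0.5 and 5, filters on the mean (none and 50), quantile and upper quartile scaling, no variance trend, only the libraries compared, the block, leaving out each library, and a start-position correction chosen after seeing the data. Some genes of the lists are not reported here. Promoter windows are from RefSeq, and gene positions and lengths from GENCODE.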

Additional observations from a re-analysis of the deposited data

Results flagged for a closer look

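The response to activin A differed between cells without and with FST288 for *Cd36* and *Pparg*, by a limma test of the difference itself over all 14318 genes. For *Cd36* the log2 difference of Act from CTRL minus that of Act+FST from FST was -0.80 (adjusted p = 0.0021), made up of -0.998 without and -0.20 with FST288, and the fall was seen in 3 of 3 replicate numbers without it and, with smaller sizes, in 3 of 3 with it. For *Pparg* it was -0.76 (adjusted p = 0.016), made up of -0.93 and -0.17, again lower in 3 of 3 replicate numbers in each comparison.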

How the results depend on the processing

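The falls of *Cd36*, *Pparg*, *Lpl*, and *Gpnmb* in Act versus CTRL passed the threshold in each of the 22 alternatives run, as did those of *Cd36*, *Pparg*, and *Lpl* in Act versus Act+FST, and *Cd36* and *Pparg* passed in each of the 21 alternatives of the difference between Act effects. The number of the 10 genes called higher in Act versus CTRL went from 0 to 2 with the replicate block and to 1 with only the libraries compared (*Apoe*) or the correction for start positions (*Apoe*), and was between 0 and 1 on leaving out a library (1 without Act+FST replicate 1, Act+FST replicate 2, or FST replicate 2). The number of DEGs in Act versus CTRL went from 0 to 1 (*Cd36*) with quantile normalization, upper quartile rescaling, or the start-position correction, and was between 0 and 2 on leaving out a library, with *Cd36* past 2-fold without CTRL replicate 2 or 3 and *Cd36* and *Pparg* without Act replicate 1 or 2. The number called higher in Act versus Act+FST went from 2 to 0 with quantile normalization and to 1 with upper quartile rescaling, no trend of the prior variance, or only the libraries compared, and was between 0 and 3 on leaving out a library (0 without Act replicate 1, Act replicate 2, or Act+FST replicate 3, and 3 without Act+FST replicate 2). In the difference between Act effects, the number higher went from 0 to 2 with the replicate block, and the number lower went from 2 to 4 with quantile normalization (*Lpl* and *Gpnmb* added). The block raised the calls over all genes in Act versus CTRL from 1468 higher and 1428 lower to 2338 and 2170 and changed no call of the 10 genes other than those given in the report. Signs turned for *Plin2* in the difference between Act effects with quantile normalization (-0.014), and on leaving out a library for *Nr1h3* (-0.26 to 0.024) and *Plin2* (-0.051 to 0.045) in Act versus CTRL and for *Trem2* (-0.03 to 0.024), *Nr1h3* (-0.008 to 0.31), and *Plin2* (-0.031 to 0.11) in the difference between Act effects, none of which passed a threshold. Of the 30 other genes named from the lists, 20 were called in Act versus CTRL in each alternative, and the other 10 lost the call on leaving out a library. The causes were not tested. Counting error limits the low genes most, here *Olr1*, *Ch25h*, *G0s2*, and *Dgat2*.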
